A study of Oryza sativa Japonica Group with 15 samples.

Results

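Roots of rice seedlings whose leaves had received a single spray of piperonylic acid (PA) were compared with roots of mock-sprayed seedlings. The comparison takes 6 of the 15 libraries of the series, 3 labelled PA1x and 3 labelled mock, by their labels alone. All plants were Oryza sativa Japonica Group, cultivar Kitaake, a japonica rice widely used for transgenic work, moved to individual tubes 5 days after germination and kept at 28 °C with 12 h of light. PA1x plants received 300 µM PA on day 13 after transplanting, mock plants were sprayed on the same day, and roots of both were collected on day 14. The protocol, given in the same words for every sample, names 0.1% Tween 20 as the wetting agent, and the labels do not spell out the mock solution. Each library came from the pooled roots of 4 plants, so replicates are separate pools and p-values measure the spread between such pools. The remaining libraries, 3 each of PA2x (300 µM PA on days 7 and 13), acibenzolar-S-methyl (ASM, 250 µM) and beta-aminobutyric acid (BABA, 3.5 mM), shared the fit and were used for side-by-side values.

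Piperonylic acid blocks cinnamate 4-hydroxylase (C4H), the enzyme that hydroxylates cinnamic acid made by phenylalanine ammonia-lyase (PAL). The products pass through 4-coumarate:CoA ligase (4CL) to lignin, flavonoids and other phenolics. The spray reached the leaves, while transcripts were measured in roots. Jasmonate responses are held back by JAZ repressor proteins, whose own genes are commonly induced by the hormone, and cold, drought and salt responses run in part through DREB, NAC and zinc finger transcription factors and through MAP kinases and calcium-dependent protein kinases.

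Recovered read totals were 7392515, 7849793 and 9480830 in the mock libraries and 7364102, 8364583 and 6576300 in the PA1x libraries. In these 6 libraries 27339 of the 36747 features were detected, and the 18316 with a mean of at least 5 normalised reads over all 15 libraries were tested. Root identity was checked with 4 root markers, all detected, whose summed level was 31124 to 35897 normalised reads in mock and 31471 to 38016 in PA1x. Markers of photosynthetic shoot tissue (5 genes, each with a read in both groups) summed to 17.1 to 293 normalised reads in mock and 18.5 to 295 in PA1x, with ranges that nearly coincide. None of the 4 tested markers of either kind was called, and the lowest p of each kind was that of the silicon transporter gene LSI1 (Os02g0745100, 0.22 ± 0.14, adjusted p = 0.586) and of RBCS3 (Os12g0291100, -0.54 ± 1.45, 0.957). Mock replicate 2 correlated least with the other libraries (0.961 to 0.978 on the log2 scale), and it was the highest mock library for 59.0% of the genes called lower in PA1x, against 37.7% of all tested genes. In bulk roots, fewer cells of a type and less RNA per cell cannot be told apart.

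A single PA spray was followed after 1 day by root transcript changes that were mostly falls. The lists with the most calls, all lower, were stress transcription factors and the salicylate and WRKY list (6 each of 12 and 13 tested) and general phenylpropanoid genes (5 of 15). Members and lists were chosen with earlier results of these data known. Among the 227 tested list genes 15.9% were called lower, against 3.13% of all tested genes. The 227 include lists added after these values were seen, so part of that share was fixed by the choice of members. Of the 18316 genes tested, 646 (3.53%) passed an adjusted p of 0.05 (limma, Benjamini-Hochberg), 573 lower (3.13%) and 73 higher (0.399%) in PA1x. The median log2 fold change was -0.75 among the genes called lower and 0.75 among those called higher, and 115 fell and 21 rose by at least 2-fold. Over all tested genes the median was -0.003 and 50.5% of values were negative, on values whose scaling by size factors centres the table. The values therefore do not show whether total transcript amount differed. The summed normalised reads were 6186892 to 6815778 in the mock libraries and 5932277 to 6170660 in the PA1x libraries, without overlap, and their part in the counts of lower genes was not tested. All 646 had groups that did not overlap, as had 21.1% of all tested genes.

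Calls were more frequent among strongly expressed genes. Among genes with a mean of 5 to 20 normalised reads 0.397% were called, and the median standard error of a log2 fold change there was 0.40. At 1000 reads and above 13.9% were called, 155 lower and 4 higher, with a median standard error of 0.13. The median log2 fold change also went from 0.07 in the lowest class to -0.09 in the highest. Calls were spread over the chromosomes, from 2.04% of tested genes on chromosome 11 to 4.64% on chromosome 2. Leaving out 1 library left 313 to 618 calls, 280 to 532 of them lower, with 340 calls (305 lower) without mock replicate 2 and 313 (280 lower) without PA1x replicate 1.

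**Figure D1:**
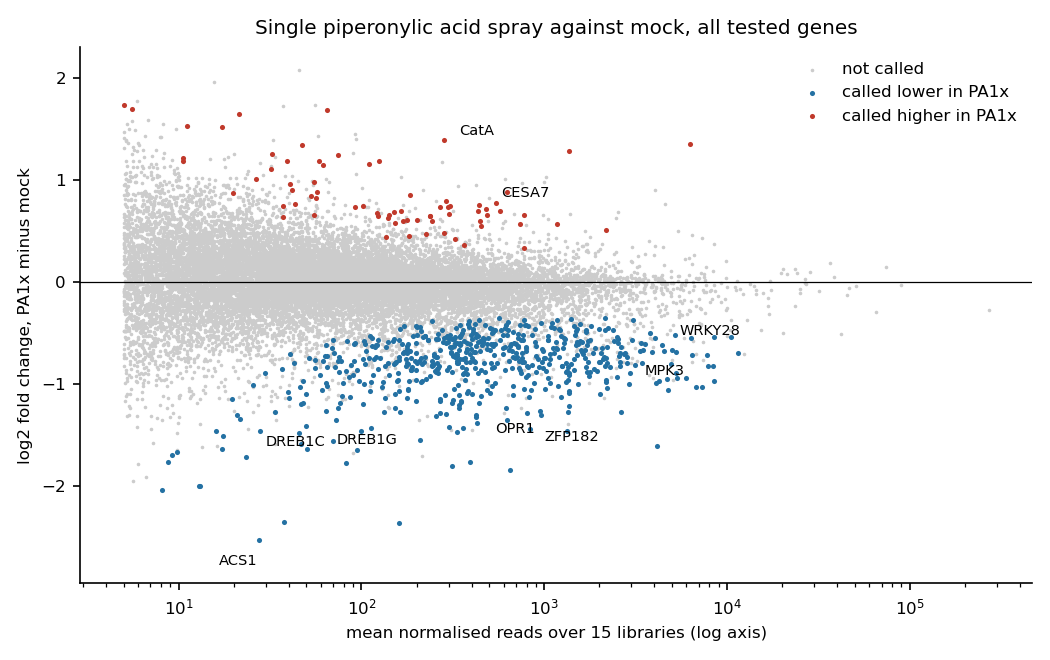
Log2 fold change of PA1x against mock for each of the 18316 tested genes, over the mean of normalised reads in all 15 libraries on a log axis. Blue points are the 573 genes called lower in PA1x, red points the 73 called higher and grey points the rest; most blue points lie to the right, where expression was high.

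Genes of the DREB1 family, transcription factors that switch on cold and drought responses through the dehydration-responsive element, showed a common fall. Of 7 family members 6 were tested and 5 were called lower, against 3.13% of all tested genes. The counts for this family rest partly on members added after their values were seen. DREB1G (Os02g0677300) stood at 319, 393 and 300 normalised reads in mock and 136, 106 and 122 in PA1x. Every PA1x library was lower than the lowest mock library, and the fall was 2.76-fold (log2 fold change -1.46 ± 0.16 SE, n = 3 against 3, limma adjusted p = 0.000226). DREB1B (Os09g0522000) had 1455, 1769 and 1407 normalised reads in mock against 628, 747 and 845 (-1.06 ± 0.22, adjusted p = 0.0111), again without overlap. DREB1F (Os01g0968800) was tightly grouped, at 43.1, 45.1 and 42.4 in mock and 18.5, 13.3 and 18.1 in PA1x (-1.35 ± 0.28, adjusted p = 0.0103).

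DREB1C (Os06g0127100) fell 2.75-fold (-1.46 ± 0.31, adjusted p = 0.0119) and DREB1A (Os09g0522200) fell 1.85-fold (-0.89 ± 0.22, adjusted p = 0.0379). DREB1H (Os09g0522100) was not called, at 42.5 to 55.7 normalised reads in mock and 36.3 to 39.8 in PA1x (-0.39 ± 0.28, adjusted p = 0.696). DREB1A, DREB1B and DREB1H carry neighbouring identifiers and may share reads, since members of the family are similar. DREB1G was called without each of the 6 libraries. DREB1A was lost without any one of them (highest adjusted p = 0.192), DREB1B without mock replicate 2 or PA1x replicate 1 (0.073), DREB1C without mock replicate 2, PA1x replicate 2 or PA1x replicate 3 (0.0722) and DREB1F without PA1x replicate 2 (0.0606).

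Other abiotic stress regulators fell by smaller amounts and with little spread among the PA1x pools. SNAC1 (Os03g0815100), a NAC factor of drought tolerance, had 698, 782 and 633 normalised reads in mock and 389, 373 and 376 in PA1x (-0.89 ± 0.15, adjusted p = 0.00236). MYB4 (Os04g0517100), a MYB factor linked to cold tolerance, went from 957, 1083 and 828 to 563, 589 and 573 (-0.72 ± 0.12, adjusted p = 0.00221). In both genes the 3 PA1x libraries lay close together and well under all mock libraries. DREB2A (Os01g0165000), a dehydration and heat response factor, fell 1.48-fold (-0.57 ± 0.11, adjusted p = 0.00595). All 3 were called without each of the 6 libraries. In the stress transcription factor list 6 of 12 tested members were called lower and none higher, against 3.13% and 0.399% of all tested genes. These 6 include DREB1A, DREB1B and DREB1C, already counted above in the DREB1 family, so the 2 counts are not separate results. The median log2 fold change of the 12 was -0.63 against -0.003 for all tested genes. Several members were strongly expressed, and at 1000 reads and above 13.9% of tested genes were called in either direction. NAC6 (Os01g0884300) just missed the threshold, at 6709, 7622 and 4945 in mock and 3926, 4122 and 3641 in PA1x (-0.70 ± 0.19, adjusted p = 0.0573). In this list mock replicate 2 was the highest mock library for 10 of 12 members and mock replicate 3 the lowest for 9, a spread within mock whose part in the result was not tested.

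A list of 5 stress zinc finger genes was added after the values were seen, and 2 were called, both lower. ZFP182 (Os03g0820300), a C2H2 zinc finger factor of salt, cold and drought tolerance, had 785, 811 and 709 normalised reads in mock and 235, 317 and 304 in PA1x. The groups were far apart, and the fall was 2.70-fold (-1.43 ± 0.24, adjusted p = 0.00236), called without each of the 6 libraries. ZFP179 (Os01g0839100), a C2H2 factor of salt tolerance, stood at 1364, 2081 and 1158 in mock and 669, 769 and 655 in PA1x (-1.09 ± 0.24, adjusted p = 0.0163). Its call was lost without mock replicate 2, its highest mock library, and without PA1x replicate 1 or 3 (highest adjusted p = 0.0933). ZFP36 (Os03g0437200) had values without overlap that did not pass (-0.65 ± 0.25, adjusted p = 0.241). ZFP245 (Os07g0587400), another C2H2 factor, was also separate and not called (-0.15 ± 0.08, adjusted p = 0.521). TZF1 (Os05g0195200), a CCCH zinc finger gene, lay on the other side, at 8.99, 7.81 and 10.4 in mock and 18.5, 14.8 and 21.7 in PA1x (0.93 ± 0.60, adjusted p = 0.619). All 5 members, chosen with their values known, had groups that did not overlap, 4 lower in PA1x and 1 higher. Of all tested genes 21.1% had groups that did not overlap.

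Of 4 tested genes of pattern recognition and the kinases that follow it, MPK3 was called, and it was lower. The list is also named for the oxidative burst, but no such member was tested. Of 4 calcium-dependent protein kinase genes, a list added after the values were seen, 2 were called, both lower. MPK3 (Os03g0285800), a MAP kinase that acts early after pathogen recognition, had 2320, 3034 and 2383 normalised reads in mock and 1496, 1555 and 1391 in PA1x (-0.79 ± 0.13, adjusted p = 0.00204). CPK4 (Os02g0126400), a calcium-dependent protein kinase of salt and drought tolerance, went from 1742, 1678 and 1873 to 926, 1087 and 1060 (-0.79 ± 0.10, adjusted p = 0.000544). Both were called without each library in turn, and in both the lowest mock library exceeded the highest PA1x library. CPK12 (Os04g0584600) fell 1.33-fold (-0.41 ± 0.11, adjusted p = 0.0459), a call lost without any one of the 6 libraries (highest adjusted p = 0.185). CPK10 (Os03g0788500) was separate but not called (-0.47 ± 0.16, adjusted p = 0.144), and the groups of CPK18 (Os07g0409900) overlapped (-0.14 ± 0.13, adjusted p = 0.794). The chitin receptors CEBiP (Os03g0133400) and CERK1 (Os08g0538300), which act upstream of MPK3, gave log2 fold changes of -0.04 ± 0.09 and 0.02 ± 0.13 (adjusted p = 0.945 and 0.987). MKK4 (Os02g0787300), a kinase that activates MPK3, had 219 to 233 normalised reads in mock and 164 to 193 in PA1x and was not called (-0.36 ± 0.16, adjusted p = 0.358).

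**Figure D2:**
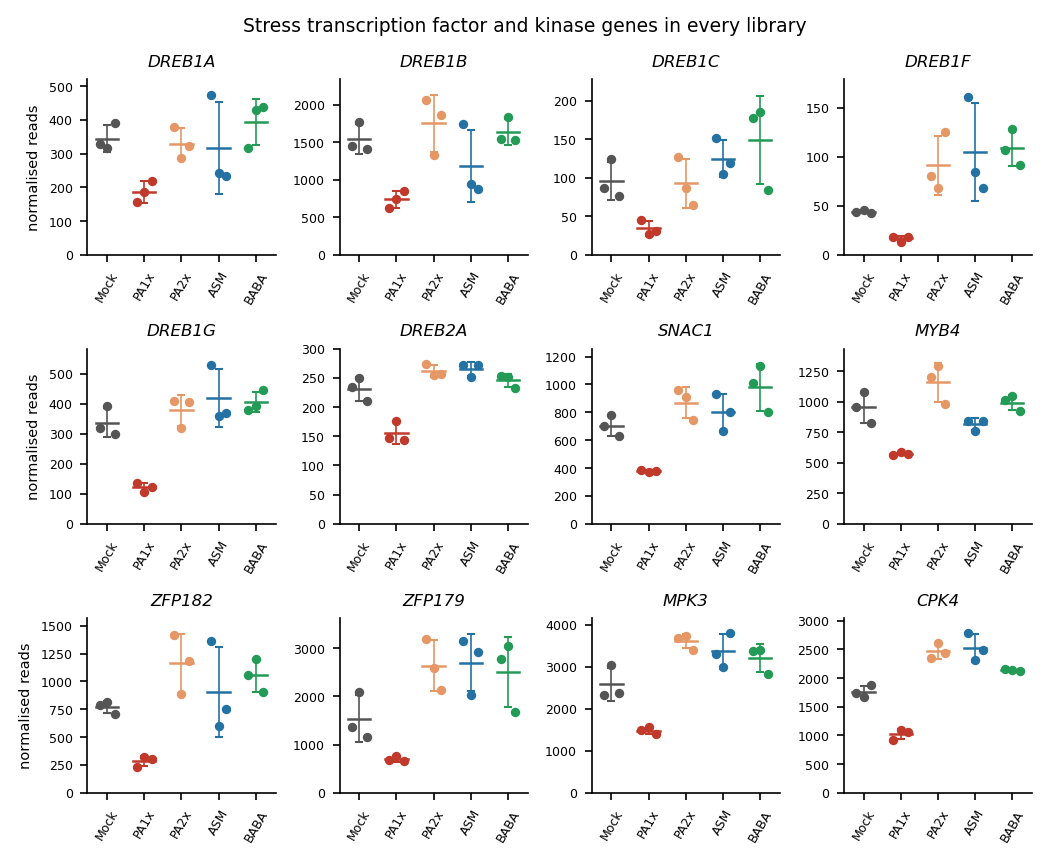
Normalised reads of 12 stress transcription factor and kinase genes in each of the 15 libraries, with a panel per gene and its own linear axis from 0. Points are libraries, horizontal bars group means and whiskers ± 1 SD (n = 3); in every panel the 3 PA1x points lie under all 3 mock points, as DREB1G does with 106 to 136 against 300.2 to 393.

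Ethylene synthesis held the lowest log2 fold change of any called gene with a mean of at least 20 over these 6 libraries. ACS1 (Os03g0727600), an ACC synthase that makes the ethylene precursor, had 37.7, 34.7 and 37.8 normalised reads in mock and 4.03, 5.16 and 8.15 in PA1x. The fall was 5.75-fold (-2.52 ± 0.33, adjusted p = 0.000565), called without each library in turn. The PA1x values rest on 5, 7 and 9 reads, so counting error is large there. ACS2 (Os04g0578000), another ACC synthase, had 1166, 1431 and 516 in mock and 454, 491 and 381 in PA1x, separate but not called (-1.11 ± 0.48, adjusted p = 0.328). Mock replicate 3 was close to the PA1x values for this gene. In the ethylene list 1 of 8 tested members was called, lower, and 7 values were negative.

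In the jasmonate list 3 of 13 tested members were called, all lower, namely OPR1 and a pair of JAZ repressor genes. OPR1 (Os06g0216300), of the 12-oxophytodienoate reductase family, stood at 284, 274 and 359 normalised reads in mock and 101, 144 and 108 in PA1x. It fell 2.6-fold (-1.38 ± 0.18, adjusted p = 0.000565), and the highest PA1x library was well under the lowest mock library. JAZ13 (Os10g0391400) went from 1257, 1698 and 1230 to 773, 762 and 795 (-0.83 ± 0.13, adjusted p = 0.00222). JAZ6 (Os03g0402800) fell 1.56-fold (-0.64 ± 0.12, adjusted p = 0.00549). These 3 were called without each library in turn.

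Across the JAZ family 12 genes were tested, 4 were called lower and 1 higher, and 7 had groups that did not overlap. Over all tested genes 3.13% were called lower and 0.399% higher, and 21.1% had groups that did not overlap. The counts for this family rest partly on 8 tested members added after their values were seen. JAZ10 (Os03g0181100) and JAZ9 (Os03g0180800), close neighbours on chromosome 3 that may share reads, fell, with log2 fold changes of -0.68 ± 0.14 and -0.94 ± 0.24 (adjusted p = 0.0121 and 0.0411). JAZ3 (Os08g0428400) rose slightly, from 656 to 707 normalised reads in mock to 814 to 905 in PA1x (0.34 ± 0.09, adjusted p = 0.0497). JAZ9 was called only without mock replicate 3, and JAZ3 was lost without any one of the 6 libraries (highest adjusted p = 0.203 and 0.207). JAZ10 was lost without mock replicate 2, PA1x replicate 1 or PA1x replicate 3 (highest adjusted p = 0.0722). JAZ12 (Os10g0392400) varied widely within mock, from 1171 to 2744 against 1058 to 1300 (adjusted p = 0.511).

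Of 3 jasmonate-responsive bHLH and MYB genes, a list added after the values were seen, 2 were called lower. RERJ1 (Os04g0301500), a bHLH factor induced by jasmonate, had 2364, 2255 and 2707 normalised reads in mock and 1365, 1306 and 1600 in PA1x. It fell 1.72-fold (-0.78 ± 0.11, adjusted p = 0.00107) and was called without each library. bHLH148 (Os03g0741100), a bHLH factor that binds JAZ proteins, fell 1.63-fold (-0.71 ± 0.15, adjusted p = 0.015), a call kept only without mock replicate 3 (highest adjusted p = 0.0853). JAMYB (Os11g0684000), a MYB factor induced by jasmonate, had 91.7, 131 and 54.8 in mock and 106, 120.2 and 101 in PA1x, overlapping groups with a positive value (0.32 ± 0.32, adjusted p = 0.815). The hub regulator MYC2 (Os10g0575000) gave 967 to 1036 in mock and 1007 to 1058 in PA1x (0.05 ± 0.09, adjusted p = 0.93). The receptor genes COI1a (Os01g0853400) and COI1b (Os05g0449500) also overlapped between groups (adjusted p = 0.96 and 0.536). For the synthesis genes AOS1 (Os03g0767000), AOC (Os03g0438100) and OPR7 (Os08g0459600) values were between -0.36 and -0.13 on the log2 scale and none was called.

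The abscisic acid, auxin and cytokinin lists held 1 call each, all lower. ABA8ox1 (Os02g0703600), an abscisic acid 8'-hydroxylase that inactivates the hormone, had 478, 382 and 546 normalised reads in mock and 221, 263 and 288 in PA1x (-0.86 ± 0.15, adjusted p = 0.00374). GH3-8 (Os07g0592600), which conjugates auxin to amino acids, went from 162, 242 and 190 to 110, 113 and 106 (-0.83 ± 0.13, adjusted p = 0.00222). CKX5 (Os01g0775400), a cytokinin oxidase, went from 97.1, 119.8 and 115 to 62.0, 60.5 and 62.5 (-0.83 ± 0.14, adjusted p = 0.00304). Groups were separate in all 3 genes, and each was called without each library in turn. They were the called members among 7 tested abscisic acid, 10 auxin and 7 cytokinin genes. Other tested members with the same kind of enzyme were not called and had overlapping groups, namely ABA8ox2 (Os08g0472800, 0.31 ± 0.26), GH3-2 (Os01g0764800, 0.10 ± 0.25) and CKX4 (Os01g0940000, -0.11 ± 0.24), with adjusted p = 0.757, 0.953 and 0.947. ABA8ox3, GH3-1 and CKX2 were under the filter and were not tested. NCED4 (Os07g0154100), a carotenoid dioxygenase of abscisic acid synthesis, stood at 244 to 314 in mock and 128 to 198 in PA1x and missed the threshold (-0.87 ± 0.25, adjusted p = 0.0684).

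The type-A response regulators, genes that cytokinin induces and whose products dampen its signal, had higher values in PA1x, but none was called. All 5 tested (RR2, RR4, RR6, RR9 and RR10) had groups that did not overlap, with PA1x higher, as had 8.74% of all tested genes. RR10 (Os12g0139400) had 35.9, 21.7 and 33.3 normalised reads in mock and 53.2, 60.5 and 75.1 in PA1x (1.05 ± 0.32, adjusted p = 0.101). RR6 (Os04g0673300) had 53, 37.3 and 49.6 in mock and 70.9, 90.7 and 75.1 in PA1x (0.75 ± 0.25, adjusted p = 0.142). The other 3 lay between 0.43 and 0.54 on the log2 scale. RR9 and RR10 are near copies and may share reads. Mock replicate 2 was the lowest mock library in all 5.

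Defence WRKY factors were lower in part. WRKY74 (Os09g0334500), a WRKY factor that also acts in phosphate starvation, had 546, 626 and 475 normalised reads in mock and 340, 313 and 344 in PA1x (-0.72 ± 0.13, adjusted p = 0.00417). It was the 1 WRKY gene of the list called without each library in turn. WRKY28 (Os06g0649000) was even within groups, at 3910, 4005 and 3827 in mock and 2600, 2746 and 2316 in PA1x (-0.62 ± 0.13, adjusted p = 0.00989, and 0.063 without PA1x replicate 3). WRKY70 (Os05g0474800), which acts in defence against herbivores, fell 1.97-fold (-0.98 ± 0.21, adjusted p = 0.0163). WRKY71, WRKY45 and WRKY53 (Os02g0181300, Os05g0322900 and Os05g0343400) fell too, with log2 fold changes of -0.61, -0.45 and -0.47 (adjusted p = 0.0194, 0.0148 and 0.0417).

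The last 4 WRKY calls were less firm. WRKY70 was lost without mock replicate 1, mock replicate 2, PA1x replicate 1 or PA1x replicate 3 (highest adjusted p = 0.0958), and WRKY71 without mock replicate 2, mock replicate 3, PA1x replicate 1 or PA1x replicate 2 (0.097). WRKY45, the salicylate pathway regulator of rice, was lost without mock replicate 1, mock replicate 3 or PA1x replicate 1 (0.101), and WRKY53 without any one library (0.164). In the whole salicylate and WRKY list 6 of 13 tested members were called lower and none higher, with a median of -0.45. Of all tested genes 3.13% were called lower. Calls in either direction were more frequent at higher expression, 9.25% at 300 to 1000 normalised reads and 13.9% at 1000 and above. The salicylate receptor genes NPR1 (Os01g0194300) and NPR3 (Os03g0667100) gave -0.17 ± 0.17 and -0.40 ± 0.13 and were not called (adjusted p = 0.809 and 0.125).

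In the pathway that PA blocks, some genes were called lower and the rest were not called, and differences between genes were not tested. All 8 PAL genes of the list were tested, 3 were called lower and none higher. PAL4 (Os02g0627100) had 2491, 2920 and 2121 normalised reads in mock and 1468, 1481 and 1372 in PA1x (-0.79 ± 0.15, adjusted p = 0.00749). PAL6 (Os04g0518400) went from 89.0, 94.6 and 102 to 55.6, 59.8 and 53.4 (-0.75 ± 0.15, adjusted p = 0.00729). Both were separate between groups and were called without each library. PAL3 (Os02g0626600) fell 1.79-fold (-0.84 ± 0.20, adjusted p = 0.0229), a call lost without mock replicate 1, mock replicate 2, PA1x replicate 1 or PA1x replicate 3 (highest adjusted p = 0.142).

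PAL1 (Os02g0626100) and PAL5 (Os04g0518100) had values on the other side without being called. PAL1 stood at 34416, 33536 and 34550 in mock and 37228, 40258 and 39182 in PA1x (0.19 ± 0.14, adjusted p = 0.722), and PAL5 at 488, 367 and 606 against 621, 645 and 657 (0.43 ± 0.16, adjusted p = 0.242). PAL2 (Os02g0626400), PAL7 (Os05g0427400) and PAL9 (Os12g0520200) gave log2 fold changes of -0.40 ± 0.17, -0.26 ± 0.30 and -0.32 ± 0.89 and were not called (adjusted p = 0.305, 0.854 and 0.959). Groups overlapped in PAL7 and PAL9. The PAL genes with identifiers from Os02g0626100 to Os02g0627100 are neighbours with similar sequences and may share reads.

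For C4H, the target of PA, 4 genes were listed and 3 tested. C4H2 (Os01g0820000) was listed at 0 in all 6 libraries, which allows up to 3 reads in each. C4H1 (Os05g0320700) had 1591, 2516 and 1288 normalised reads in mock and 1502, 1703 and 1326 in PA1x, overlapping groups with no detectable difference (-0.20 ± 0.28, adjusted p = 0.888). C4H4 (Os02g0467600) had 596, 888 and 346 in mock and 259, 283 and 233 in PA1x. Its 3 PA1x libraries lay under all mock libraries, but the mock spread was wide and the gene was not called (-1.14 ± 0.37, adjusted p = 0.135), although it passed with only the 6 libraries in the fit (adjusted p = 0.0374). C4H3 (Os02g0467000) was near the detection limit, at 6.29, 11.3 and 6.53 in mock and 3.22, 1.48 and 0.905 in PA1x, values that rest on 4, 2 and 1 reads in PA1x. It was called (-1.69 ± 0.43, adjusted p = 0.0404), but not with a pseudocount of 5 (-0.92, adjusted p = 0.0932), with only the 6 libraries (0.0817) or with edgeR on the recovered reads (0.0521), and when a library was left out it passed only without PA1x replicate 1 (highest adjusted p = 0.201).

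Among the 4CL genes, 4CL5 (Os08g0448000) fell from 1386, 1914 and 1047 normalised reads to 777, 778 and 731 (-0.88 ± 0.23, adjusted p = 0.0484), a call kept only without mock replicate 3 (highest adjusted p = 0.251). 4CL3 (Os02g0177600) had 5231, 5652 and 4109 in mock and 6693, 6653 and 6647 in PA1x, separate and higher but not called (0.43 ± 0.21, adjusted p = 0.428). In the general phenylpropanoid list 5 of 15 tested members were called lower and none higher (median -0.34), and 10 of 15 had groups that did not overlap. Of all tested genes 3.13% were called lower and 21.1% had groups that did not overlap. Several members were strongly expressed, and at 1000 reads and above 13.9% of tested genes were called. Mock replicate 2 was the highest and mock replicate 3 the lowest mock library for 10 members each.

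**Figure D3:**
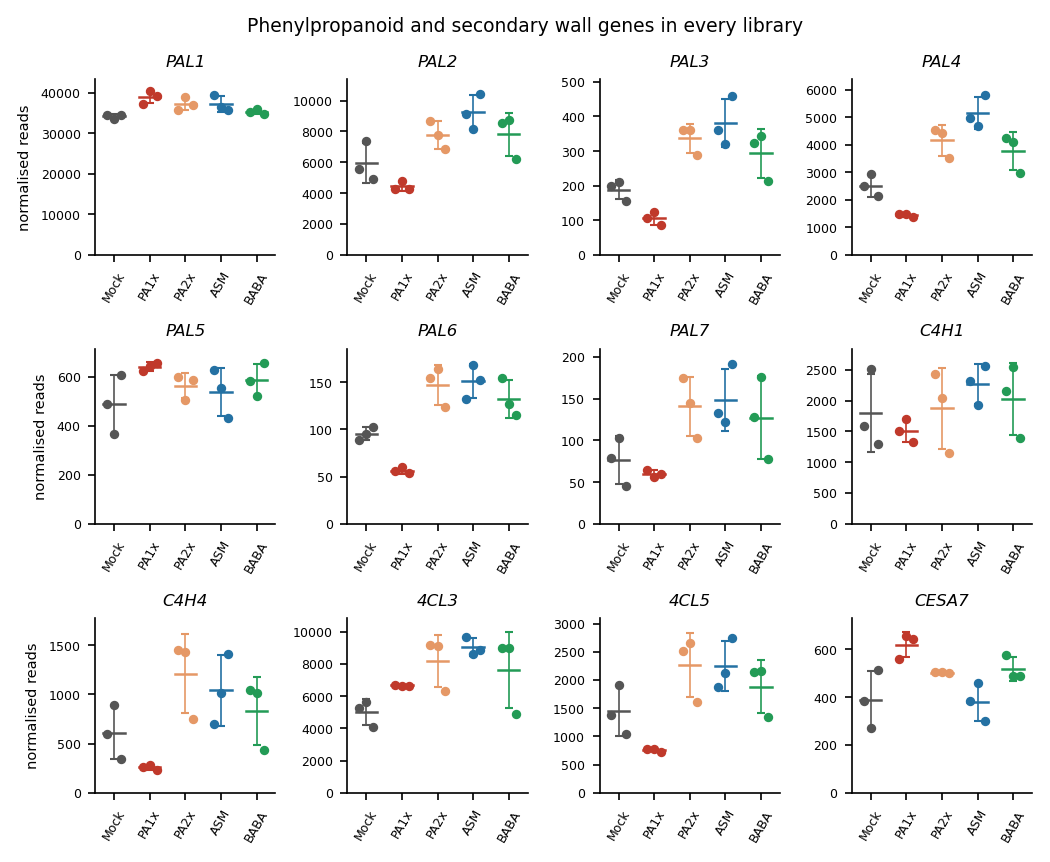
Normalised reads of 11 phenylpropanoid genes and the secondary wall gene CESA7 in each library, with a linear axis from 0 per panel. Points are libraries, horizontal bars group means and whiskers ± 1 SD (n = 3); PA1x lies under mock in PAL2, PAL3, PAL4, PAL6, C4H4 and 4CL5 and over it in PAL1, PAL5, 4CL3 and CESA7.

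The genes that rose were fewer. CatA (Os02g0115700), a catalase that breaks down hydrogen peroxide, had 151, 121 and 218 normalised reads in mock and 394, 406 and 448 in PA1x. All PA1x libraries exceeded all mock libraries, and the rise was 2.61-fold (1.39 ± 0.26, adjusted p = 0.00671), called without each library in turn. CatB (Os06g0727200), the catalase gene known for root expression, stayed within 4602 to 4768 in mock and 4439 to 4776 in PA1x (-0.02 ± 0.09, adjusted p = 0.982).

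CESA7 (Os10g0467800), a cellulose synthase of the secondary cell wall, rose from 383, 273 and 514 normalised reads to 559, 656 and 643 (0.71 ± 0.19, adjusted p = 0.0455). Its partners in the same enzyme complex, CESA4 (Os01g0750300) and CESA9 (Os09g0422500), had similar values without being called (0.62 ± 0.22 and 0.60 ± 0.20, adjusted p = 0.174 and 0.152). All 3 had groups that did not overlap, with PA1x higher, as had 8.74% of all tested genes. In all 3 mock replicate 2 was the lowest mock library. The CESA7 call was kept only without mock replicate 3 (highest adjusted p = 0.224), and it was lost with only the 6 libraries (adjusted p = 0.069) and with edgeR (0.0526). The 5 primary wall cellulose synthase genes gave a median log2 fold change of 0.03 and no call. Gns1 (Os05g0375400), a glucanase, had 588, 801 and 420 in mock and 1007, 1277 and 1161 in PA1x, separate but not called (0.97 ± 0.33, adjusted p = 0.164), and passed with only the 6 libraries (0.0191).

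Genes best known as defence outputs did not pass. None of the 12 tested diterpenoid phytoalexin genes, which make momilactones, phytocassanes and related antimicrobials, was called, although all 12 values were negative (median -0.31). Groups overlapped in all 12. MAS (Os04g0179200), the momilactone A synthase, had 2152, 2159 and 436 normalised reads in mock and 1288, 1339 and 551 in PA1x (-0.36 ± 0.77, adjusted p = 0.941). Replicate 3 was the lowest library of its group for all 12 genes in both mock and PA1x, and the 95% interval of the MAS difference, -1.99 to 1.26 on the log2 scale, leaves room for changes in either direction.

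Pathogenesis-related genes also varied within groups. PR10a (Os12g0555500), an intracellular defence protein gene, had 50474, 84211 and 33706 in mock and 52192, 62233 and 40663 in PA1x (-0.04 ± 0.43, adjusted p = 0.992). PR1a (Os07g0129200), of the PR1 family often used as a marker of salicylate responses, also overlapped (-0.05 ± 0.36, adjusted p = 0.986). None of 8 tested members was called, and mock replicate 2 was the highest mock library for all 8. Of the 8 values 4 were positive and 4 negative. The glucanase gene Gns1, described above, belongs to this list and was its 1 member without overlap, with PA1x higher.

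Nutrient and water transport genes held 1 call. PT8 (Os10g0444700), a phosphate transporter, had 3267, 3402 and 3622 normalised reads in mock and 2301, 2565 and 2437 in PA1x (-0.49 ± 0.13, adjusted p = 0.0398), and was lost without any one library (highest adjusted p = 0.175). The other 9 tested phosphate genes were not called. Of 10 nitrogen genes 9 had negative values (median -0.38) and none was called. Mock replicate 2 was the highest mock library for 8 of the 10 and mock replicate 3 the lowest for 9. GS1;2 (Os03g0223400), the cytosolic glutamine synthetase of roots, had 7637, 8284 and 5808 in mock and 3967, 4505 and 4180 in PA1x, separate but not called (-0.77 ± 0.29, adjusted p = 0.241), and passed with only the 6 libraries (0.0105). Of 11 aquaporin genes 9 had positive values (median 0.20) and none was called. Their values moved together between libraries, with replicate 3 the highest for 8 of the 11 in mock and 10 in PA1x. TIP1;1 (Os03g0146100), a vacuolar water channel, went the furthest by p (0.35 ± 0.11, adjusted p = 0.14, and 0.0376 with DESeq2 on the recovered reads). Among 8 iron deficiency genes and 8 circadian clock genes none was called, with medians of -0.12 and -0.01.

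The remaining lists held no call. Among 6 gibberellin genes the lowest p was that of KAO (Os06g0110000), an oxidase of gibberellin synthesis, at 0.899 to 7.83 normalised reads in mock and 7.24 to 12.1 in PA1x (adjusted p = 0.409). SWEET14 (Os11g0508600), a sugar exporter, had 33.9 to 62.0 in mock and 69.3 to 85.1 in PA1x (0.69 ± 0.23, adjusted p = 0.148), the lowest p of 6 sugar genes. D3 (Os06g0154200), an F-box protein of strigolactone signalling, had 103 to 137 in mock and 152 to 165 in PA1x (0.37 ± 0.17, adjusted p = 0.376), the lowest p of 3. These 3 genes were picked by p and had higher values in PA1x, but their lists did not share 1 direction. Gibberellin values were 2 positive and 4 negative, sugar values 3 and 3, and strigolactone values 3 positive. The groups of SWEET14 and D3 did not overlap, with PA1x higher, as in 8.74% of all tested genes.

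NOMT (Os12g0240900), which makes the flavonoid phytoalexin sakuranetin, was near the detection limit, at 3.92 to 9.55 in mock and 0.806 to 2.95 in PA1x (adjusted p = 0.387), the lowest p of 3 flavonoid genes. KSL10 (Os12g0491800), a diterpene synthase, had the lowest p of its list (-0.74 ± 0.73, adjusted p = 0.818). IRO3 (Os03g0379300), an iron deficiency regulator, had 104 to 129 in mock and 146 to 169 in PA1x (0.42 ± 0.20, adjusted p = 0.399), without overlap. GI (Os01g0182600), a clock gene, gave -0.19 ± 0.09 (adjusted p = 0.408) and CESA3 (Os07g0424400), of the primary wall, 0.11 ± 0.10 (0.795). Among 4 ascorbate peroxidase and superoxide dismutase genes and 4 fermentation genes, the lowest p were those of SODCC2 (Os07g0665200) and ADH1 (Os11g0210300), adjusted to 0.782 and 0.945. The 4 heat shock genes listed were under the filter and were not tested.

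**Figure D4:**
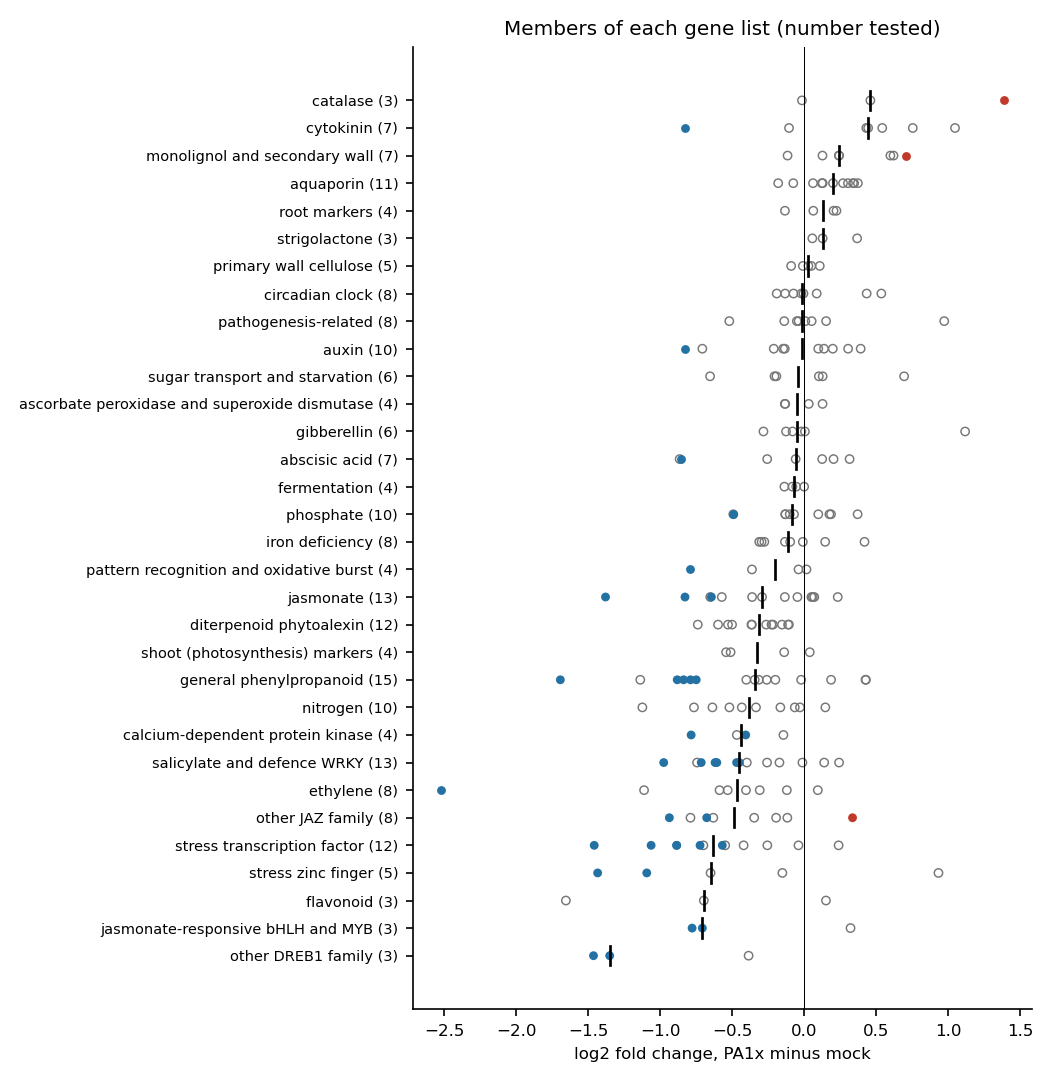
Log2 fold change of PA1x against mock for every tested member of each gene list, with lists ordered by their median (black bar) and the number tested in parentheses. Filled points passed an adjusted p of 0.05, blue for lower and red for higher, and open points did not; DREB1, jasmonate-responsive bHLH, stress transcription factor, WRKY and phenylpropanoid members lie mostly left of 0 and catalase, secondary wall and cytokinin members mostly right of it.

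Outside the lists, the identifier with the highest log2 fold change among called genes with a mean of at least 20 was Os10g0165300, at 37.7, 20.0 and 32.0 normalised reads in mock and 98.3, 96.6 and 90.5 in PA1x (1.68 ± 0.39, adjusted p = 0.0234, and up to 0.128 with a library left out, lost without mock replicate 2 or any PA1x library). Os01g0924200 followed, at 11.7, 8.68 and 20.2 against 37.9, 44.3 and 44.4 (1.65 ± 0.29, adjusted p = 0.00387, called without each library). After ACS1, the lowest was Os03g0313300, at 226, 179 and 300.2 against 36.3, 36.9 and 63.4 (-2.36 ± 0.35, adjusted p = 0.00117, called without each library). The groups were separate in all 3. None of these identifiers was given a name, since the files pair none with them.

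The single spray was also compared directly with the other treatments, which shares the PA1x libraries with the comparison above. PA1x differed from PA2x in 11.3% of tested genes, from ASM in 15.7% and from BABA in 9.75%, each at an adjusted p under 0.05 in the same fit. ZFP182 was 1.43 log2 units under mock in PA1x, while its differences from mock were 0.57 in PA2x, 0.15 in ASM and 0.45 in BABA, none of them called (adjusted p = 0.337, 0.831 and 0.536). Against PA2x directly it was lower by -2.01 ± 0.24 on the log2 scale (adjusted p = 2.56e-05). MPK3 was lower in PA1x than in PA2x, ASM and BABA by log2 differences of -1.28, -1.18 and -1.11 (adjusted p = 5.74e-06, 6.25e-06 and 2.37e-05).

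PAL4 showed opposite signs, at -0.79 in PA1x and at 0.73 in PA2x and 1.04 in ASM against mock (adjusted p = 0.00749, 0.0321 and 0.000959), and the direct difference between PA1x and PA2x was -1.52 (adjusted p = 7.23e-06). JAZ13 likewise was at -0.83 in PA1x and 0.82 in PA2x (adjusted p = 0.00222 and 0.00949), with a direct difference of -1.65 (adjusted p = 1.3e-06). OPR1 was at -1.38 in PA1x and 1.33 in ASM (adjusted p = 0.000565 and 0.000384), with a direct difference of -2.71 (adjusted p = 1.07e-07). ACS1 was at -2.52 in PA1x against mock. Its values in PA2x, ASM and BABA were -0.78, -0.38 and 0.23, none of them called (adjusted p = 0.347, 0.639 and 0.865). It was lower in PA1x than in PA2x, ASM and BABA by log2 differences of -1.75, -2.15 and -2.75 (adjusted p = 0.00166, 0.000196 and 3.57e-05).

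DREB1B was at -1.06 in PA1x and at -0.44 in ASM, the second not called (adjusted p = 0.329), and their direct difference of -0.62 did not pass (adjusted p = 0.0684). CatA was positive in all 4 treatments, at 1.39, 0.92, 0.60 and 0.80 in PA1x, PA2x, ASM and BABA, and only the PA1x value was called. Its direct differences from PA2x, ASM and BABA were 0.46, 0.78 and 0.59 and did not pass (adjusted p = 0.338, 0.0558 and 0.214). Doses differ between the compounds, and PA2x plants had an earlier spray on day 7 for which no mock group was sprayed.

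**Figure D5:**
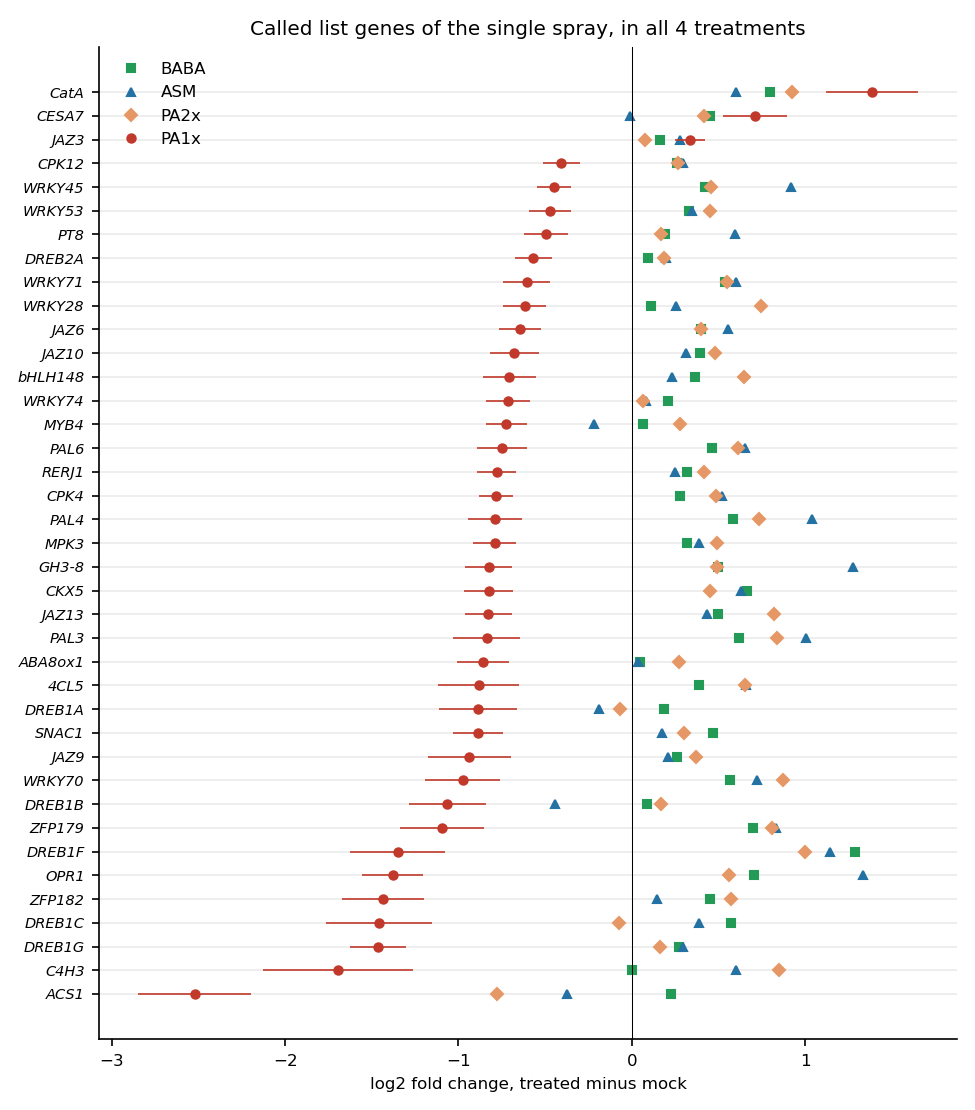
Log2 fold change against mock in PA1x (circles, with ± 1 SE), PA2x (diamonds), ASM (triangles) and BABA (squares) for the 39 list genes called in PA1x against mock, ordered by their PA1x value. All 4 values of a gene share the 3 mock libraries, and the genes were chosen for their PA1x value; 36 PA1x circles lie left of 0 and 3 right of it.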

How the data were processed

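Root RNA of 15 pools was made into QuantSeq 3' mRNA libraries, which count reads at transcript ends, per the labels' protocols. The unit of the deposited table is a signal. Each value is a gene's read count after division by a library's size factor, a step the authors took, judging from the values and from DESeq2 among the submitters' processing notes, which also name FastQC 0.11.8, Trimmomatic 0.38 and STAR 2.6.1d. The sources used here give no genome build, annotation or strand setting, so overlapping and antisense genes cannot be told apart. Whole reads were recovered in every library (100% of values within 0.1 of a whole read), with size factors of 1.10 to 1.53 in mock and PA1x. A count of 0 allows up to 3 reads, 1.96 to 2.72 normalised reads here, and this covers counting error only.

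In R 4.3.3, limma 3.58.1 was fitted with its trend option to log2(value + 1) of genes with a mean of at least 5. The fit held all 15 libraries and no covariate besides group, tests were two-sided, and p was adjusted by Benjamini-Hochberg over all tested genes with a threshold of 0.05. On this log2(value + 1) scale the changes of weakly expressed genes are understated. A gene called lower or higher passed that threshold. Alternatives used edgeR 4.0.16 and DESeq2 1.42.0 on recovered reads, other pseudocounts, filters and scaling, a replicate block and leaving out each library. The script was checked on simulated data.

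Members and lists were chosen with earlier results of these data known, and 5 of 33 lists (other DREB1 and JAZ genes, zinc fingers, calcium-dependent kinases and bHLH or MYB genes) were added after values were seen. Text names the called members of each list, every PAL and C4H gene and, for lists with no call, the gene with the lowest p, with the 2 highest identifiers and 2 lowest; further members were named after their values were seen. The file gives identifiers only, so names come from general knowledge. Of 278 list members, 194 had a namesake in the RefSeq gene table (ASM3414082v1) on the chromosome and near the place their identifier implies, 74 had none there, and 8 lay elsewhere and were left out with 2 not in the file, leaving 268 genes.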

Additional observations from a re-analysis of the deposited data

How the results depend on the processing

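The count of genes lower in PA1x stayed within 1.5 times of 573 under all alternatives that kept the 6 libraries. The count of higher genes went from 73 to 150 with only the 6 PA1x and mock libraries in the fit, to 114 with edgeR and to 119 with DESeq2. Lower calls were 88.7% of all calls, and 82.5% with only the 6 libraries. Leaving out 1 library gave 313 to 618 calls, 280 to 532 lower and 23 to 86 higher. The 618 calls and the 86 higher calls came without mock replicate 3, and leaving out any other library gave 313 to 406 calls. Such fits also hold fewer samples, and the cause was not tested. A fit with replicate number as a block (the replicate block) gave 687 calls, 73 higher and 614 lower, 618 of them shared with the 646. Same-numbered mock and PA1x libraries deviated together with correlations of 0.0998, 0.224 and 0.283. Each was the highest for that PA1x library among the 3 mock libraries, and the same held for BABA (0.064, 0.0979 and 0.234). With ASM the same-numbered correlations were negative (-0.214, -0.045 and -0.25). With PA2x the same number was the highest only for PA1x replicate 3 (0.244). The labels state no pairing by number, and it was not tested. Of 42 called named genes 21 passed under every alternative run. Without a filter on low values 9 named calls were lost, with the block 3 (CPK12, JAZ3 and CESA7). No called named gene changed sign under any of them. Genes with a mean under 20 normalised reads had a median standard error of 0.40 on the log2 scale, which limits what could be called there.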

Other observations

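The spread between replicate pools differed between groups. Over the 18316 tested genes the median SD on the log2 scale was 0.165 in PA1x, 0.209 in mock, 0.238 in PA2x, 0.23 in ASM and 0.234 in BABA. For the genes called lower in PA1x, which were chosen in part for a small spread, it was 0.0965 in PA1x and 0.153 in mock.

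Of the 28 noncoding RNA identifiers tested, none was called (lowest limma adjusted p = 0.067). Among the genes called lower, 5 had at most 3 reads in every PA1x library, and no gene called higher was that low in mock. The shoot markers RBCS2 (Os12g0274700) and RBCS3 (Os12g0291100), for the small subunit of Rubisco, were at 0 in replicate 1 of both groups and highest in replicate 2 of both, at 102 and 51.2 normalised reads in mock and 56.1 and 32.5 in PA1x.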
